A study of Mus musculus with 24 samples.

Results

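The cytochrome P450 genes of families Cyp2 and Cyp3, with the genes of the nuclear receptors CAR (Nr1i3) and PXR (Nr1i2), were followed in the livers of male BALB/c mice fed quercetin. Members were all genes whose symbol in the platform annotation begins with Cyp2 or Cyp3 and a subfamily letter, plus Nr1i2, Nr1i3 and Por, the P450 reductase gene. Of the genes so defined, 42 had a probe set annotated with their symbol alone and form the set described here, out of 18193 genes in all. They comprised 35 Cyp2 genes, 5 Cyp3a genes and 2 receptor genes, and Por was not analysed here because no probe set was named for it alone. A further 2 probe sets, which name Cyp2a4 with Cyp2a5 and Cyp3a41a with Cyp3a41b, were left out because their signal cannot be assigned to 1 gene.

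The study fed 4 groups of 6 mice for 14 days on AIN93G, a purified rodent diet, with no quercetin (control) or with 0.1%, 0.5% or 1.0% quercetin, a plant flavonol. The mice were males of the inbred strain BALB/c, 6 weeks old on arrival, given a week on a nonpurified chow before the diets, and housed 3 to a cage. Which mice shared a cage did not enter the fits, and the part of cage was not tested. Total liver RNA of each mouse went onto 1 Affymetrix expression array, so the p-values measure the spread between mice. The design addresses how liver RNA differs with the amount of quercetin in the diet.

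P450 enzymes of these families are heme-containing monooxygenases of the endoplasmic reticulum that oxidise drugs, plant compounds, steroids, bile acids and fatty acids, mostly in hepatocytes. CAR and PXR are sensors of foreign compounds. Once activated, each pairs with RXR and binds repeats of a short motif in the regulatory DNA of its target genes; Cyp2b10 is the usual readout of CAR in mouse liver and Cyp3a11 that of PXR. Many Cyp2c genes respond to both receptors, whereas Cyp2d and Cyp2e genes respond little. Several mouse P450 genes also differ between the sexes through the pattern of growth hormone release, with Cyp2b9, Cyp2b13, Cyp3a16 and Cyp3a44 higher in females and Cyp2d9 higher in males.

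The promoter windows of the gene with the single call (Nr1i2) and of the 3 Cyp3a genes with the most signal or the lowest p-values are shown because this subfamily is the one PXR is best known to control. Each runs from 250 bases before to 50 bases after the start of the gene, on the strand of the gene, as given by RefSeq for build GRCm38.p6. Nr1i2 lies at chr16:38294775-38295074, Cyp3a11 at chr5:145879805-145880104, Cyp3a25 at chr5:146009569-146009868 and Cyp3a44 at chr5:145805825-145806124, all on the minus strand. Capitals mark the motifs AGGTCA and AGTTCA, searched on both strands, so that their reverse complements are also in capitals.
Nr1i2: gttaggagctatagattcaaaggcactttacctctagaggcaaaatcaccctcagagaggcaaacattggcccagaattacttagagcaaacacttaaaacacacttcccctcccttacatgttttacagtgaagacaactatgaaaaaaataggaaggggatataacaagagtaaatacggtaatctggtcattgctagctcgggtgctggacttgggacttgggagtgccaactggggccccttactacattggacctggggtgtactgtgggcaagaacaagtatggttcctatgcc
Cyp3a11: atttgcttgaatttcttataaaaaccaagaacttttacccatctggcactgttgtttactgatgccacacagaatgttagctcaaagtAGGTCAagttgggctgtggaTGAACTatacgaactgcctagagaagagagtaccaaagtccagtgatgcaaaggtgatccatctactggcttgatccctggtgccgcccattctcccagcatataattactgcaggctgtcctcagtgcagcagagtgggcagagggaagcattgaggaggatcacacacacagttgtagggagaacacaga
Cyp3a25: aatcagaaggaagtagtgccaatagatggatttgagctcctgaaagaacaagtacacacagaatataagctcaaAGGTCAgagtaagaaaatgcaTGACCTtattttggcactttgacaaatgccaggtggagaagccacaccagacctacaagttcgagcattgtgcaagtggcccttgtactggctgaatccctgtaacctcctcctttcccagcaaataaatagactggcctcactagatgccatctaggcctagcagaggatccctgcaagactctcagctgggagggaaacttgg
Cyp3a44: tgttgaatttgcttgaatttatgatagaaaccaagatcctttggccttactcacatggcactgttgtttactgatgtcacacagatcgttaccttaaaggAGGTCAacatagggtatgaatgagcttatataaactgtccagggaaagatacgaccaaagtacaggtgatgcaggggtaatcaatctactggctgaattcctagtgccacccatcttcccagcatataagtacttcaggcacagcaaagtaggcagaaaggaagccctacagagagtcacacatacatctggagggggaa
The Cyp3a11 and Cyp3a25 windows each held 2 matches, that of Cyp3a44 held 1 and that of Nr1i2 held 0, as did those of Nr1i3 and Cyp2b10. A promoter entry was found for 34 members. At least 1 of the motifs was present in 13 of them (38.2%), against 27.6% of the 27025 promoters in the table. AGGTCA alone was in 12 members (35.3%, against 16% of all promoters) and AGTTCA in 2 (5.88%, against 14%). The window of Cyp3a44 matched that of Cyp3a11 at 79.9% of aligned bases and that of Cyp3a16 at 95.9%, and the windows of Cyp2b9 and Cyp2b13 matched at 99.3%. These are letters of the reference genome, not of BALB/c, and a match is not a binding site. Motifs outside the windows were not searched, so a window without a match does not mean that the gene lacks sites.

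The deposited intensities were not on a common scale (array medians ran from 4.78 to 7.58), so values below are quantile-normalized log2(intensity + 1). On the first principal component of all genes, which carried 9.15% of the variance, 4 arrays stood apart from the others: replicates 4 and 6 at 0.5% and replicates 4 and 5 at 1.0%. Replicate 2 at 1.0% stood apart on the second component (5.91%). Leaving the 4 arrays out moved many of the differences below, and the main such values are given beside them. Averaged over the 24 arrays, all 7 hepatocyte markers were above the floor defined below, as were 4 of 4 endothelial, 4 of 5 Kupffer cell, 3 of 5 stellate cell, 3 of 4 neutrophil and 1 of 4 cholangiocyte markers. For other tissues, 1 of 2 pancreas (Cela1), 1 of 2 intestine (Fabp2), 0 of 2 kidney and 0 of 3 T and B cell markers were above it. In bulk RNA, fewer cells of a type and less RNA per cell cannot be told apart.

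The floor, the level at which a probe set gives no more than background, was set at 3.28, the 95th percentile of the values of 71 odorant, vomeronasal and trace amine receptor genes. Of the 42 members, 26 (61.9%) were above it on all 24 arrays, against 43.1% of all genes. At the other end, Cyp2c65, Cyp2j11 and Cyp3a16 were at or below it on all 24 arrays, and a further 13 members crossed it between arrays. Averaged over the 24 arrays, 33 members were above the floor (53.6% of all genes), and 10 were above 11 (0.945% of all genes). Probe sets differ in affinity, so a level says how far a gene lay above its background and does not rank transcripts.

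The members above 11 were Cyp2e1, Cyp2c29, Cyp3a11, Cyp2d9, Cyp2f2, Cyp2c70, Cyp2d10, Cyp3a25, Cyp2d26 and Cyp2a12. Cyp2e1, which oxidises ethanol and paracetamol in cells around the central vein, averaged 13.00 ± 0.04 in control, 12.96 ± 0.06 at 0.1%, 13.03 ± 0.08 at 0.5% and 12.97 ± 0.08 at 1.0% (log2, SD, n = 6 each). Its groups overlapped throughout. Quantile normalization gives every array the same set of values, so genes this bright take values by rank and mice can share a value. Several control mice shared 12.98, and the SDs of such genes partly reflect steps of rank. The subfamilies were mixed: Cyp2c spanned levels from 1.45 (Cyp2c65) to 12.55 (Cyp2c29) over the 24 arrays, Cyp2d from 2.39 (Cyp2d34) to 12.00 (Cyp2d9), Cyp2j from 1.21 (Cyp2j11) to 10.78 (Cyp2j5) and Cyp3a from 0.59 (Cyp3a16) to 12.38 (Cyp3a11). The genes best known as inducible lay low apart from Cyp2c29 and Cyp3a11: the 24-array means of Cyp2b10, Cyp2c55 and Cyp2c37 were 3.61, 3.85 and 2.86, close to the floor.

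**Figure D1:**
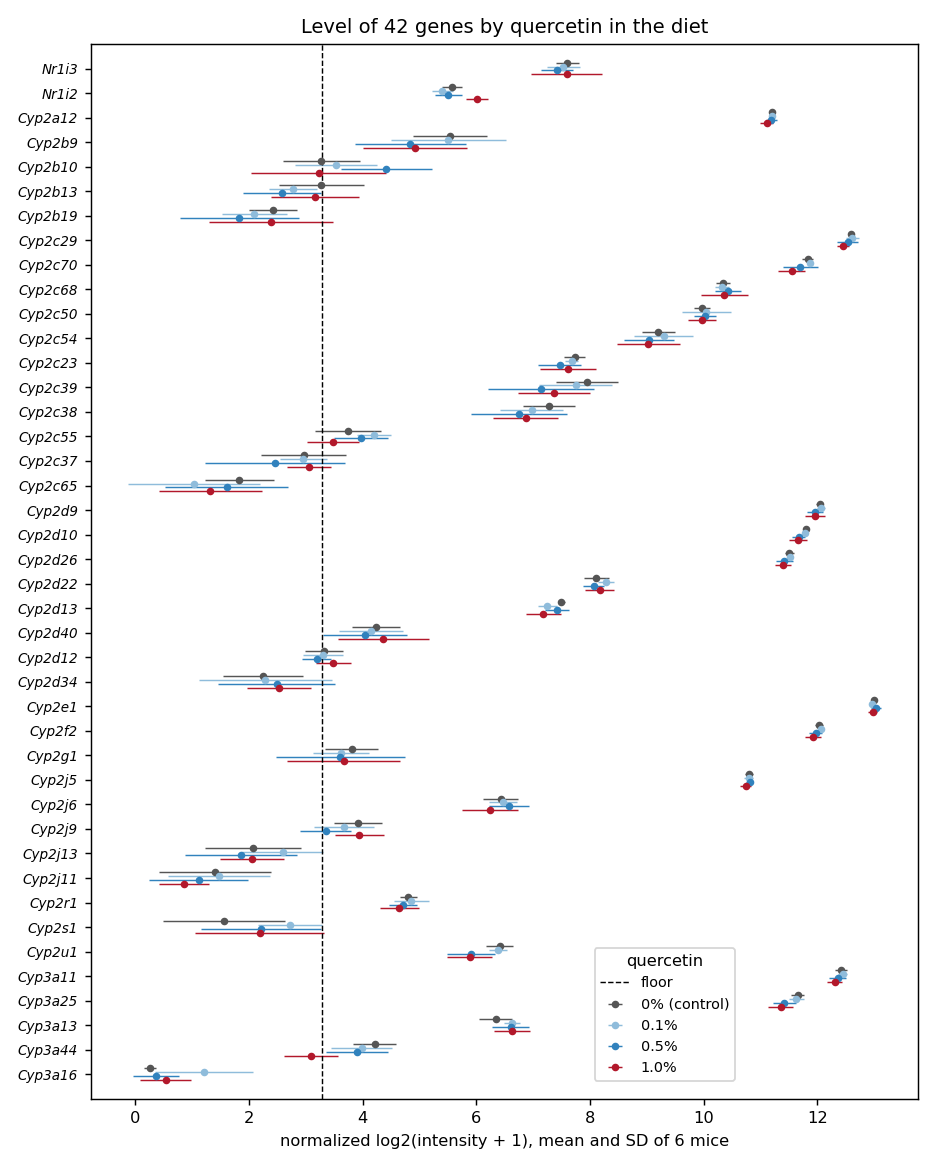
Mean level (normalized log2(intensity + 1), horizontal axis) of the 42 genes in each diet group, with the SD of 6 mice as bars and the floor of 3.28 as a dashed line. The genes of 1 subfamily range from below the floor to above 11, and the 4 diet groups lie close together for the genes above 11.

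In the comparisons of a quercetin diet with control, 0 of the 42 genes passed a Benjamini-Hochberg adjusted p of 0.05 over all genes in limma. In the same fits 0% of all genes passed at 0.1%, 0.0165% at 0.5% and 0.022% at 1.0%. At an unadjusted p under 0.05 the counts were 2 members at 0.1% (background 5.11% of all genes), 4 at 0.5% (9.52% of members, background 7.65%) and 6 at 1.0% (14.3% of members, background 8.92%). The slope over dose gave 0 members (background 0.0989%) at the adjusted threshold and 6 at the unadjusted one (14.3%, background 10.9%). The F test for any difference among the diets gave 0 (background 0.181%), with 5 under an unadjusted p of 0.05 (11.9%, background 9.49%). Between the quercetin groups, 1 member passed at 1.0% against 0.1% (2.38%, background 0.253%), and 0 passed at 0.5% against 0.1% (background 0.214%) or at 1.0% against 0.5% (background 0.022%). At an unadjusted p under 0.05 these 3 comparisons held 7 members (background 9.42%), 2 (background 10.1%) and 4 (background 6.19%).

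The member that passed was Nr1i2, the gene of PXR. Its lowest, median and highest values were 5.35, 5.60 and 5.75 in control, 5.19, 5.43 and 5.68 at 0.1%, 5.29, 5.46 and 5.98 at 0.5% and 5.74, 6.00 and 6.34 at 1.0%. All 6 mice at 1.0% lay above all 6 at 0.1%, and the 1.0% group overlapped with control by its lowest mouse and with 0.5% by the highest mouse of that group. At 1.0% Nr1i2 was higher than at 0.1% by 0.61 (SE 0.13, 95% interval 0.35 to 0.87, limma adjusted p = 0.0371), a 1.53-fold difference. Groups separated in this way in 0.517% of all genes.

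Against control the 1.0% difference of Nr1i2 was 0.44 (SE 0.13, adjusted p = 0.36), with 6 of 6 mice above the control mean. The differences were -0.17 (SE 0.13) at 0.1% and -0.06 (SE 0.13) at 0.5%, and the slope was 0.50 per 1% of the diet (SE 0.13, adjusted p = 0.0977). The 1.0% against 0.1% difference kept its direction under each of 11 other settings and with each of the 24 arrays left out, but it passed the threshold in 3 of the 11 settings. Without the 4 arrays apart on the first component it was 0.66 (adjusted p = 0.0627), and without normalization between arrays it was 0.57 (adjusted p = 0.607). With the replicate number as a block it was 0.61 (adjusted p = 0.0883), although the numbers do not pair the mice. Leaving out replicate 1, 2, 5 or 6 at 0.1%, or replicate 1, 2, 3, 4 or 6 at 1.0%, also ended the call, with adjusted p-values from 0.0616 to 0.102 and differences from 0.55 to 0.63.

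A second probe set for Nr1i2 gave a different order of the groups. It averaged 4.96 ± 0.32 in control, 4.62 ± 0.20 at 0.1%, 5.31 ± 0.55 at 0.5% and 5.13 ± 0.40 at 1.0% (SD, n = 6 each). Its difference at 1.0% against 0.1% was 0.50 (SE 0.22, adjusted p = 0.547 with every probe set tested), that at 1.0% against control 0.17 (SE 0.22), and that at 0.5% against control 0.35 (SE 0.22). Over the 24 arrays it correlated with the first at r = 0.462. Both probe sets were thus higher at 1.0% than at 0.1% and differed on the 0.5% group.

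Nr1i3, the gene of CAR, did not pass in any comparison. Its lowest, median and highest values were 7.34, 7.54 and 7.90 in control, 7.11, 7.52 and 7.97 at 0.1%, 7.02, 7.39 and 7.79 at 0.5% and 6.58, 7.82 and 8.24 at 1.0%. The groups overlapped, and the spread at 1.0% was the widest of the 4 (SD 0.62, against 0.20 in control). The 1.0% difference from control was -0.01 (SE 0.22, 95% interval -0.47 to 0.45) and the 0.5% difference was -0.19 (SE 0.22). At 1.0% the lowest mice were replicates 5 (6.58) and 4 (7.12), both among the arrays that stood apart, while the other 4 lay between 7.73 and 8.24. Without the 4 arrays the 1.0% difference was 0.36 (adjusted p = 0.582).

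**Figure D2:**
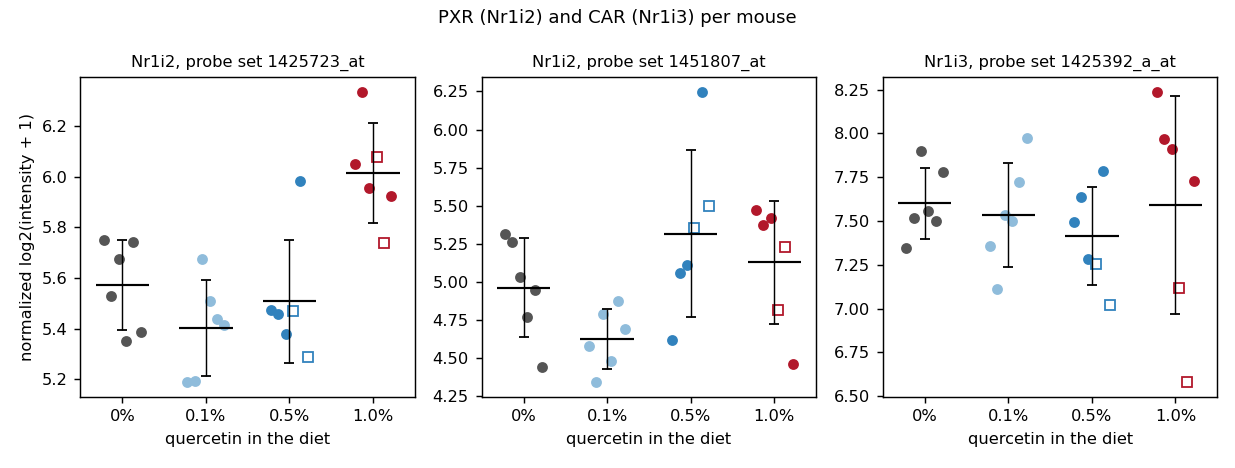
Normalized log2(intensity + 1) of both Nr1i2 probe sets and of the Nr1i3 probe set in each mouse, by quercetin in the diet. Lines are means, bars the SD of 6 mice, and open squares the 4 arrays far out on that component. In the first Nr1i2 panel the 6 mice at 1.0% (5.74 to 6.34) lie above the 6 at 0.1% (5.19 to 5.68).

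By direction, 30 of the 42 members (71.4%) were lower than control at 1.0%, against 51.6% of all genes, and 31 (73.8%) at 0.5%, against 53.4%. At 0.1% the count was 23 (54.8%, against 47.7%). The median difference of the members was -0.11 at 1.0% and -0.11 at 0.5%, beside medians of all genes of -0.01 and -0.02. The count depended on the scale and on the 4 arrays: without normalization between arrays 24 members were lower at 1.0% and 17 at 0.5%, while the median of all genes moved to 0.05 and 0.15. Set against that median of all genes, 28 and 31 members were lower. Without the 4 arrays 23 were lower at 1.0% and 21 at 0.5%, which is 54.8% and 50%.

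Of the 10 members above 11, all 10 were lower at 1.0% (9 without normalization, 8 without the 4 arrays), with a median of -0.11, and 9 were lower at 0.5% (1 without normalization, 6 without the 4 arrays), with a median of -0.07. Among the 172 genes of the array with a mean above 11, 60.5% were lower at 1.0% and 61% at 0.5%. By subfamily at 1.0%, 8 of 11 Cyp2c genes were lower (median -0.18), 4 of 4 Cyp2b (median -0.08), 4 of 8 Cyp2d (median -0.01), 4 of 5 Cyp2j (median -0.05) and 3 of 5 Cyp3a (median -0.11). Without normalization the Cyp2b count was 1 of 4, the Cyp2j count 3 of 5 and the other 3 counts were the same. With only members whose mean was above the floor, 7 of 9 Cyp2c, 2 of 2 Cyp2b, 4 of 7 Cyp2d, 2 of 3 Cyp2j and 3 of 4 Cyp3a genes were lower at 1.0%. Without the 4 arrays Cyp2b13 and Cyp2b19, both with means under the floor, were higher at 1.0% (0.34 and 0.23). Cyp2b9 and Cyp2b10 stayed lower (-0.16 and -0.73). At 0.5% the counts over all members were 8 Cyp2c, 3 Cyp2b, 7 Cyp2d, 3 Cyp2j and 3 Cyp3a genes lower. Of these, the Cyp2c count became 5, the Cyp2d count 2 and the Cyp3a count 2 without normalization. Without the 4 arrays Cyp2c29, Cyp2c38, Cyp2c54 and Cyp2c65 were no longer lower at 0.5% (0.05, 0.00, 0.07 and 0.05). Cyp2c68, higher with all arrays, was then lower (-0.03), and the other Cyp2c genes kept their sign. All counts without normalization in this paragraph were taken against 0. The median of all genes was then 0.05 at 1.0% and 0.15 at 0.5%, so these counts do not separate the members from the shift of scale.

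**Figure D3:**
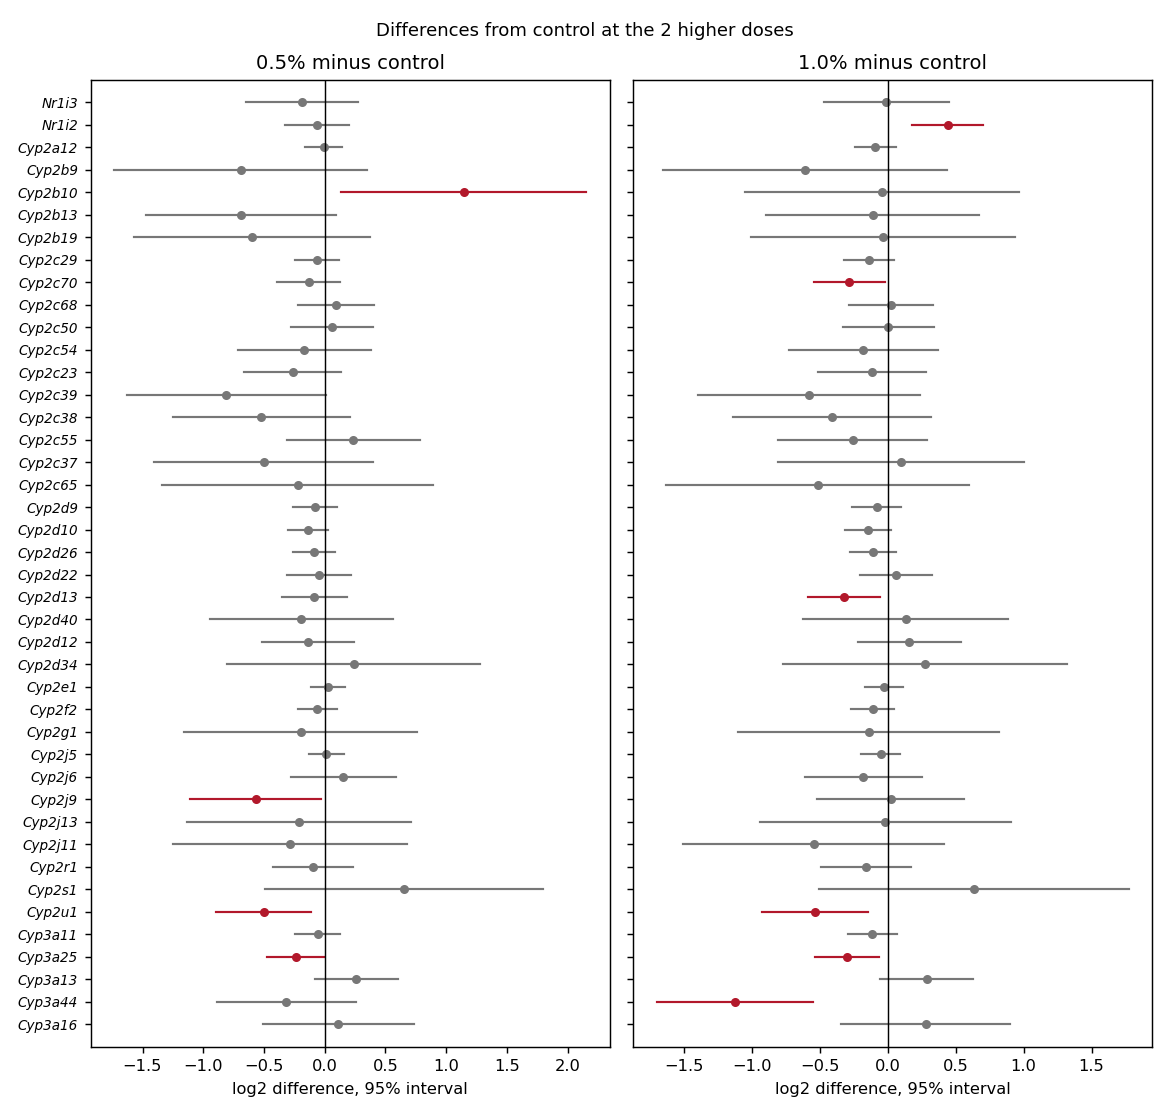
Difference from control in normalized log2(intensity + 1) of each of the 42 genes at 0.5% and at 1.0% quercetin, with its 95% interval (SE from limma, residual degrees of freedom). Red marks an unadjusted p under 0.05. Most points lie below 0 in both panels (31 and 30 of 42), and the intervals are short for bright genes and long for genes near the floor.

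Among the Cyp3a genes, Cyp3a44 had the largest difference from control. Its lowest, median and highest values were 3.66, 4.43 and 4.51 in control, 3.08, 4.08 and 4.62 at 0.1%, 3.33, 3.91 and 4.72 at 0.5% and 2.62, 2.95 and 3.86 at 1.0%. The 1.0% group overlapped with control by its highest mouse, 6 of 6 mice lay below the control mean, and 4 of 6 were at or below the floor. The difference was -1.13 (SE 0.27, 95% interval -1.70 to -0.55, adjusted p = 0.263), and the slope was -1.03 per 1% of the diet (SE 0.24, adjusted p = 0.082). Without the 4 arrays these were -1.22 (adjusted p = 0.268) and -1.08 (adjusted p = 0.181). Near the floor, log2(intensity + 1) understates changes.

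Cyp3a25, another adult liver Cyp3a gene, had lowest, median and highest values of 11.52, 11.65 and 11.85 in control, 11.40, 11.66 and 11.78 at 0.1%, 11.11, 11.49 and 11.61 at 0.5% and 10.98, 11.45 and 11.54 at 1.0%. All 6 mice at 1.0% and all 6 at 0.5% were below the control mean, with overlap between the groups. The differences were -0.30 (SE 0.11, adjusted p = 0.435) at 1.0% and -0.24 (SE 0.11, adjusted p = 0.645) at 0.5%. The 2 lowest mice of each of these groups were the arrays that stood apart, and without them the differences were -0.17 and -0.11.

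Cyp3a11, the main drug-metabolising Cyp3a of adult mouse liver, averaged 12.42 ± 0.11 in control, 12.45 ± 0.08 at 0.1%, 12.36 ± 0.15 at 0.5% and 12.30 ± 0.14 at 1.0% (SD, n = 6 each). Its 1.0% difference of -0.11 (SE 0.09) had a 95% interval from -0.30 to 0.07. A rise larger than 0.07 lies outside that interval on the quantile-normalized scale only, where values of genes this bright move in steps of rank. Without the 4 arrays the difference was -0.08 (limma adjusted p = 0.855). Cyp3a13, expressed in both liver and gut, ran the other way, with 6.63 ± 0.32 at 1.0% against 6.34 ± 0.29 in control (difference 0.29, SE 0.16, adjusted p = 0.65), with a difference of 0.14 (SE 0.15) without the 4 arrays. Cyp3a16, a gene of fetal mouse liver, was below the floor on all arrays, and its difference of 0.95 at 0.1% (unadjusted p = 0.00432, adjusted p = 0.878) was between values under the floor.

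In the Cyp2b subfamily the CAR target Cyp2b10 was higher at 0.5% and not at 1.0%, without passing the adjusted threshold. Its lowest, median and highest values were 2.85, 2.94 and 4.56 in control, 2.71, 3.52 and 4.73 at 0.1%, 3.48, 4.51 and 5.35 at 0.5% and 2.02, 3.02 and 4.84 at 1.0%. All 6 mice at 0.5% were above the floor, against 2 of 6 in control, and the groups overlapped. The 0.5% difference was 1.14 (SE 0.48, 95% interval 0.14 to 2.15, adjusted p = 0.583), and 0.73 (adjusted p = 0.969) without the 4 arrays. At 1.0% the difference was -0.04 (SE 0.48, 95% interval -1.05 to 0.96), and the 2 highest mice, replicates 4 (4.84) and 5 (4.37), were arrays that stood apart, while replicates 1, 2 and 3 lay at 2.02, 2.10 and 2.59. Without the 4 arrays the 1.0% difference was -0.73 (adjusted p = 0.689).

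The other 2 probe sets of Cyp2b10 were dimmer, followed the first at r = 0.707 and r = 0.655, and gave 0.89 and 1.28 at 0.5%. The first and the one that gave 0.89 carry a suffix that marks probes shared between transcripts, so a share of their signal may come from other Cyp2b genes. Cyp2b9 averaged 5.53 ± 0.65 in control, 5.50 ± 1.01 at 0.1%, 4.84 ± 0.98 at 0.5% and 4.92 ± 0.92 at 1.0%, and was lower in 5 of 6 mice than the control mean at each of the 2 higher doses. Its lowest mice were again replicates 4 (3.89) and 6 (3.38) at 0.5% and 4 (4.58) and 5 (3.47) at 1.0%. Its differences from control were -0.69 (SE 0.50) at 0.5% and -0.61 (SE 0.50) at 1.0%, and without the 4 arrays -0.09 and -0.16. Cyp2b13 was above the floor on 7 of 24 arrays and Cyp2b19 on 1.

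The Cyp2c subfamily held the largest number of genes, 11. Cyp2c70, which makes the muricholic acids of mouse bile, had lowest, median and highest values of 11.71, 11.83 and 11.96 in control, 11.77, 11.87 and 11.93 at 0.1%, 11.41, 11.65 and 12.14 at 0.5% and 11.19, 11.56 and 11.85 at 1.0%. At 1.0%, 5 of 6 mice lay below the control mean, with overlap. The difference was -0.28 (SE 0.12, adjusted p = 0.517) and the slope -0.31 (SE 0.11, adjusted p = 0.255). Here the arrays that stood apart were the 2 highest at 1.0%, and without the 4 arrays the difference was -0.41 (adjusted p = 0.302) and the slope -0.46 (adjusted p = 0.0724).

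Cyp2c29, an inducible gene with a high basal level, averaged 12.59 ± 0.04 in control, 12.61 ± 0.11 at 0.1%, 12.53 ± 0.18 at 0.5% and 12.45 ± 0.11 at 1.0% (SD, n = 6 each), a 1.0% difference of -0.14 (SE 0.09, 95% interval -0.32 to 0.04). Cyp2c55, inducible by phenobarbital-type compounds in mouse, averaged 3.74 ± 0.58 in control, 4.20 ± 0.30 at 0.1%, 3.98 ± 0.48 at 0.5% and 3.48 ± 0.46 at 1.0%, and at 1.0% it was 0.71 below the 0.1% group (difference -0.71, SE 0.26, adjusted p = 0.371). Cyp2c37, a further phenobarbital-responsive gene, stayed around the floor in every group (1.0% difference 0.10, SE 0.43).

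Cyp2c39, known as a retinoic acid hydroxylase, and its close relative Cyp2c38 varied widely between mice. Cyp2c39 averaged 7.95 ± 0.54 in control, 7.75 ± 0.65 at 0.1%, 7.13 ± 0.94 at 0.5% and 7.36 ± 0.63 at 1.0%. Its lowest mice were replicates 6 (5.82) and 4 (6.10) at 0.5% and 5 (6.38) and 4 (6.99) at 1.0%, against 7.32 to 8.80 in control. Cyp2c38 had the same 4 mice at 5.42, 6.00, 6.06 and 6.45, against 6.64 to 7.94 in control. The 0.5% differences were -0.81 (SE 0.39, adjusted p = 0.657) for Cyp2c39 and -0.52 (SE 0.35) for Cyp2c38, and without the 4 arrays they were -0.23 (SE 0.32) and 0.00 (SE 0.28). The other Cyp2c genes, Cyp2c23, Cyp2c50, Cyp2c54, Cyp2c65 and Cyp2c68, had 1.0% differences between -0.52 (Cyp2c65, under the floor) and 0.03 (Cyp2c68). The 1.0% difference of Cyp2c68 had the other sign without the 4 arrays (-0.23, SE 0.09, adjusted p = 0.543). So did those of Cyp2c23 (-0.11, and 0.19 without them, SE 0.11) and Cyp2c54 (-0.18, and 0.09 without them, SE 0.26). Cyp2c50 and Cyp2c65 kept their sign. The probe sets of Cyp2c23 and Cyp2c65 carry the suffix for shared probes described above for Cyp2b10.

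In the Cyp2d subfamily Cyp2d13 had lowest, median and highest values of 7.40, 7.48 and 7.59 in control, 7.05, 7.27 and 7.47 at 0.1%, 7.10, 7.46 and 7.69 at 0.5% and 6.65, 7.33 and 7.42 at 1.0%. All 6 mice at 1.0% and all 6 at 0.1% were below the control mean, and the ranges overlapped. The 1.0% difference was -0.32 (SE 0.13, adjusted p = 0.461), and -0.14 without the 4 arrays. A second probe set gave -0.35 (SE 0.18). Cyp2d10 averaged 11.66 ± 0.16 at 1.0% against 11.81 ± 0.05 in control (slope -0.15, SE 0.07, adjusted p = 0.443), with a slope of -0.06 (adjusted p = 0.852) without the 4 arrays. Cyp2d9, a steroid hydroxylase typical of male mouse liver, averaged 11.96 ± 0.17 at 1.0% against 12.04 ± 0.06 in control (difference -0.08, SE 0.09), and its difference without the 4 arrays was 0.03 (SE 0.07). The other 5 Cyp2d genes differed from control at 1.0% by -0.11 to 0.28. Among them, Cyp2d22 differed by 0.06 (SE 0.13) on the probe set used and by -0.26 (SE 0.13) on its second probe set.

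Of the remaining subfamilies, Cyp2u1, a fatty acid hydroxylase, had lowest, median and highest values of 6.02, 6.44 and 6.75 in control, 6.18, 6.39 and 6.63 at 0.1%, 5.33, 6.06 and 6.30 at 0.5% and 5.34, 5.84 and 6.50 at 1.0%. All 6 mice at 0.5% and 5 of 6 at 1.0% were below the control mean, with overlap. The differences were -0.53 (SE 0.19, adjusted p = 0.411) at 1.0% and -0.50 (SE 0.19, adjusted p = 0.559) at 0.5%, and without the 4 arrays -0.35 and -0.25. Its second probe set, nearer the floor, followed the first at r = 0.156 and differed by -0.03 (SE 0.19) at 1.0%.

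Cyp2j9 averaged 3.92 ± 0.42 in control, 3.67 ± 0.53 at 0.1%, 3.35 ± 0.45 at 0.5% and 3.94 ± 0.43 at 1.0%, so only its 0.5% difference reached an unadjusted p under 0.05 against control (-0.57, SE 0.26, adjusted p = 0.632). Cyp2j5, an arachidonic acid epoxygenase, stayed between 10.61 and 10.89 in all mice on its brighter probe set. Its second probe set averaged 8.93 ± 0.15 in control, 8.78 ± 0.13 at 0.1%, 8.76 ± 0.23 at 0.5% and 8.65 ± 0.26 at 1.0%. The 1.0% difference of that probe set was -0.27 (SE 0.13, limma adjusted p = 0.609 with every probe set tested). Cyp2s1, better known outside the liver, had 2 of 24 arrays above the floor, and its 0.1% difference of 1.16 (SE 0.55, adjusted p = 0.962) was between such values. The naphthalene-oxidising Cyp2f2 (1.0% difference -0.11, SE 0.08), Cyp2a12 (-0.09, SE 0.07), the vitamin D hydroxylase gene Cyp2r1 (-0.16, SE 0.16) and the olfactory gene Cyp2g1 (-0.14, SE 0.46) had intervals that included 0. Cyp2g1 differed by 0.40 (SE 0.49), the other sign, without the 4 arrays.

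**Figure D4:**
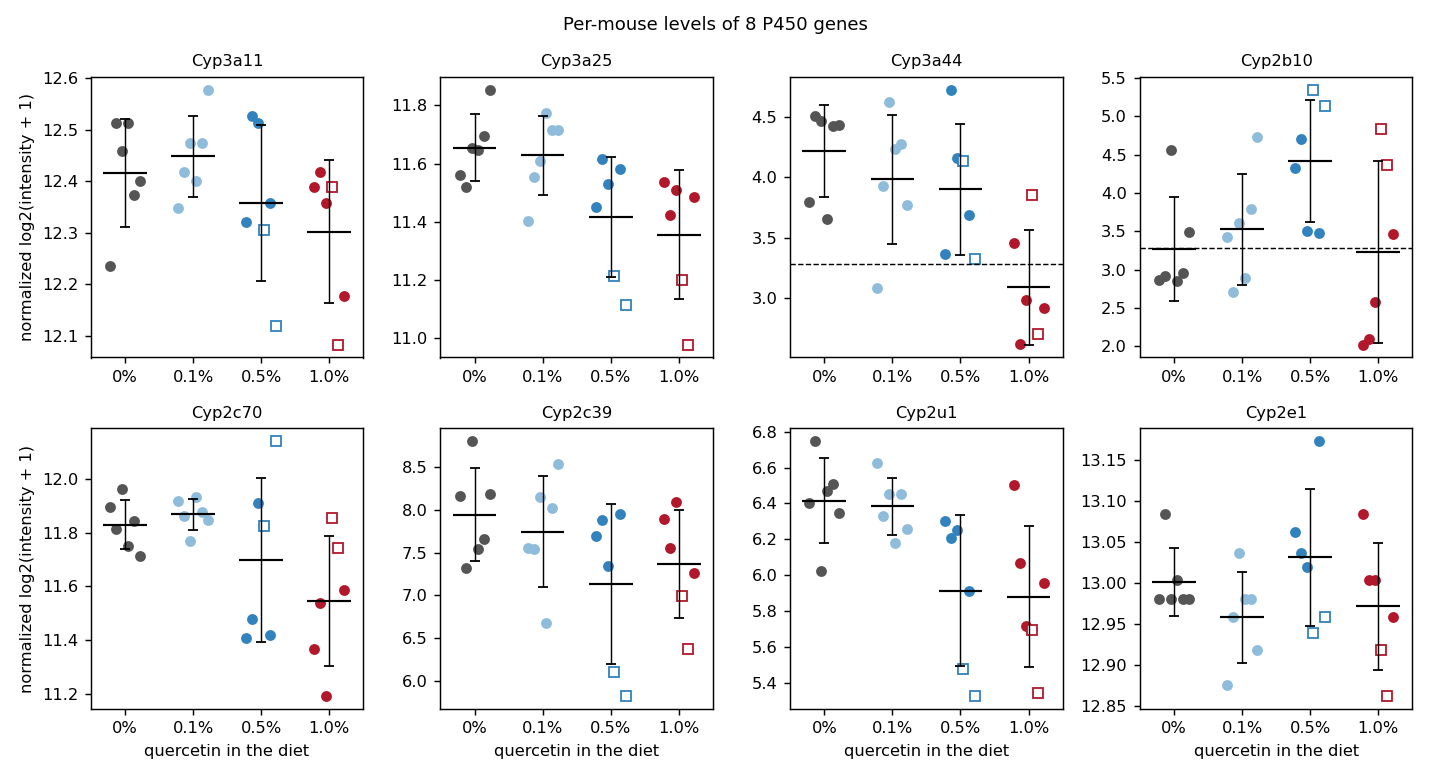
Normalized log2(intensity + 1) of 8 P450 genes in each mouse, by quercetin in the diet, with vertical axes fitted to each gene. Lines are means, bars the SD of 6 mice, the dashed line the floor (3.28) where it falls in the panel, and open squares the 4 arrays that stood apart. The open squares are the lowest points of their groups for Cyp3a25, Cyp2c39, Cyp2u1 and Cyp2e1 and the highest for Cyp2b10.

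The mice on the 2 higher doses were more unlike each other than the control mice. Among the 33 members with a mean above the floor, the SD exceeded that of control in 31 (93.9%) at 1.0%, 29 (87.9%) at 0.5% and 22 (66.7%) at 0.1%, beside 72.3%, 63.7% and 53.5% of all genes above the floor. The median SD of these members was 0.32 at 1.0% and 0.25 at 0.5%, against 0.18 in control. For all 10 members above 11 the SD was larger than in control at both higher doses. The same held for 77.9% of the 172 genes of the array above 11 at 1.0% and for 72.7% at 0.5%.

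When the 4 arrays that stood apart were left out, a comparison added after the data were seen, the SD of the remaining 4 mice exceeded that of control in 17 of the 33 members (51.5%, against 58.6% of all genes above the floor) at 1.0% and in 18 (54.5%, against 45.2%) at 0.5%. The median SD was then 0.19 at 1.0% and 0.17 at 0.5%, against 0.18 in control. Control kept its 6 mice, and the arrays left out had been picked for lying far from the others. A smaller SD is thus partly built in, and what widened the spread was not tested. Of the 10 members above 11, the SD stayed above that of control in 6 at 1.0% and 9 at 0.5%. The matching share of all genes above 11 was not computed. In 13 of the 42 members (31%) all 4 of these arrays were among the 2 lowest of their own group, against 6.2% of all genes and 10.9% of genes above the floor, and in 3 members (7.14%, against 3.77% of all genes) they were the highest. Above the floor these highest counts were 6.06% of members and 6.37% of all genes. The 13 were Nr1i3, Cyp2b9, Cyp2b13, Cyp2c23, Cyp2c38, Cyp2c39, Cyp2d9, Cyp2d13, Cyp2d22, Cyp2e1, Cyp2j6, Cyp2u1 and Cyp3a25, and the 3 were Cyp2b10, Cyp2c68 and Cyp2s1. The arrays were picked on a component computed from all genes, these included, so the counts describe that component and test nothing. Cyp2c68, for example, was at 10.84 and 10.53 in replicates 6 and 4 at 0.5% and at 10.89 and 10.86 in replicates 4 and 5 at 1.0%, against 10.12 to 10.47 in control.

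**Figure D5:**
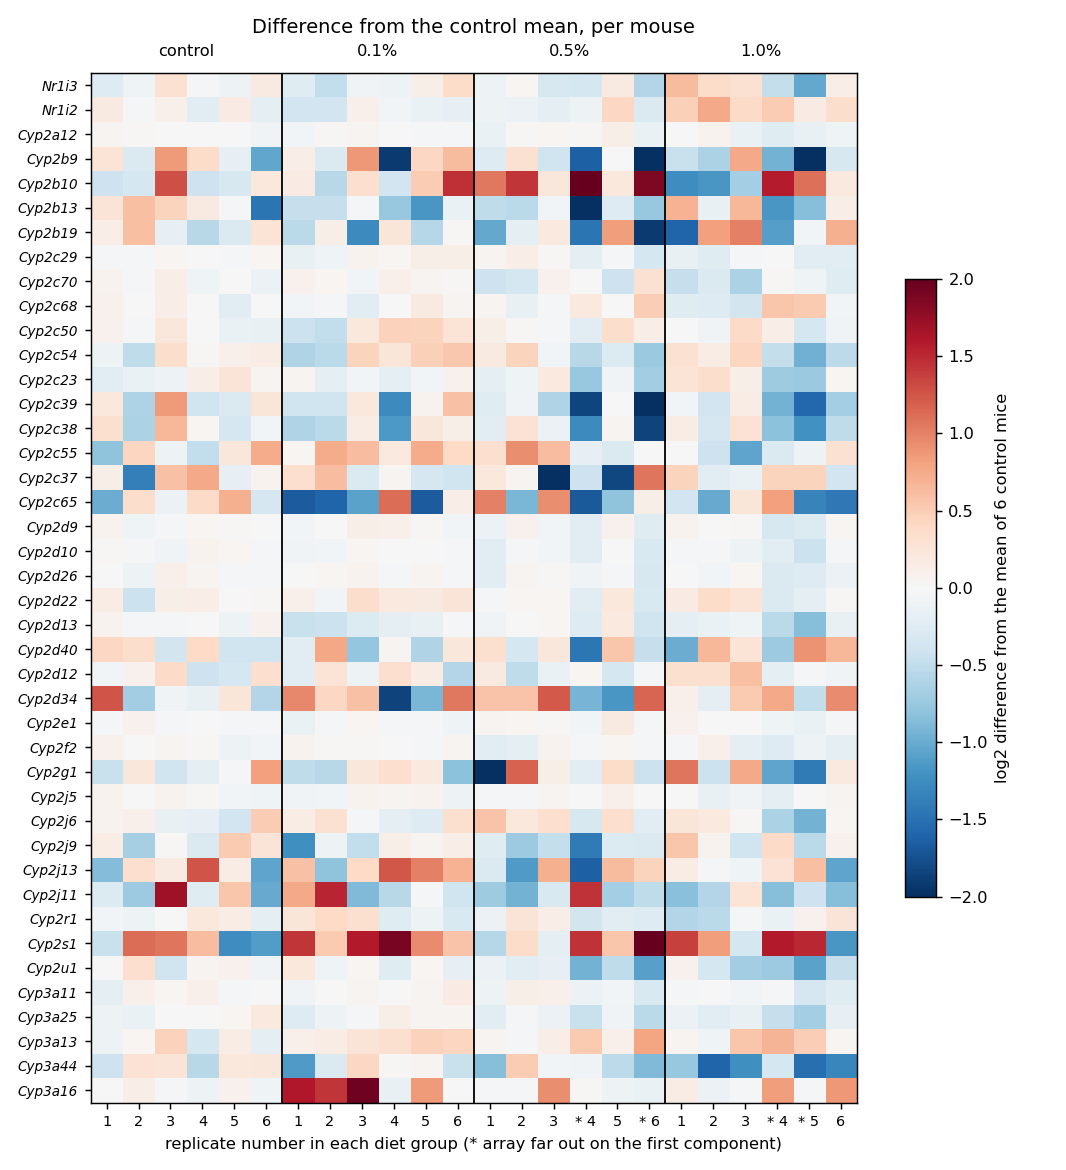
Difference of each mouse from the control mean of each gene (log2, red higher and blue lower, colours capped at 2 either way) for the 42 genes, in columns by diet and replicate number. The starred columns, replicates 4 and 6 at 0.5% and 4 and 5 at 1.0%, are blue for Cyp2b9, Cyp2c38, Cyp2c39 and Cyp3a25 and red for Cyp2b10.

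Other genes of the CAR and PXR pathway were taken from a list of 40 partners, cofactors, conjugating enzymes and transporters, of which 34 were measured and 32 were above the floor. At 1.0% 0 passed against control, with 15 higher and 19 lower and a median difference of -0.03, and 3 higher and 3 lower at an unadjusted p under 0.05 (background 4.45% and 4.47% of all genes). At 0.5% 1 passed, Alas1, the first enzyme of heme synthesis, which supplies the P450s (10.10 ± 0.79 at 0.5% against 7.84 ± 0.80 in control, SD, n = 6 each; difference 2.25, SE 0.39, adjusted p = 0.0464; background 0.011% called higher), with 18 higher and 16 lower. Alas1 also passed at 0.5% against 0.1% (background 0.143% called higher), by 2.79 (SE 0.39, adjusted p = 0.00236). With the 4 arrays left out these were 1.95 (adjusted p = 0.243) and 2.48 (adjusted p = 0.0193). At 1.0% against 0.1% and over the slope 1 passed, Nr0b2, the corepressor SHP, as lower (slope -1.22 per 1% of the diet, SE 0.23, adjusted p = 0.0312), with 0.137% and 0.0605% of all genes called lower in these comparisons. Its slope without the 4 arrays was -1.16 (adjusted p = 0.0548) and its 1.0% against 0.1% difference -1.21 (adjusted p = 0.0679, against 0.0371 with all arrays).

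Nr0b2 averaged 9.10 ± 0.39 in control, 9.27 ± 0.34 at 0.1%, 8.35 ± 0.63 at 0.5% and 8.05 ± 0.33 at 1.0% (SD, n = 6 each). Ces2a, a carboxylesterase, and Ephx1, the microsomal epoxide hydrolase, had 1.0% differences from control of -0.29 (SE 0.09, adjusted p = 0.365) and 0.32 (SE 0.10, adjusted p = 0.365). Hnf4a, a hepatocyte factor needed for P450 expression, differed by 0.37 (SE 0.17, adjusted p = 0.538), and by 0.13 without the 4 arrays. Genes of the cells around the central vein, where many P450s are expressed, were lower for 8 of 9 measured at 1.0% (median -0.09) and periportal genes for 7 of 8 (median -0.09), with 0 passing in either list. All of these were above the floor, where 54.8% of all genes were lower at 1.0%. The periportal list includes the member Cyp2f2. Of the female-biased P450s on the array, 3 of 4 were lower at 1.0%, and of the male-biased P450s 3 of 4, again with 0 passing. The 4 female-biased genes (Cyp2b9, Cyp2b13, Cyp3a16 and Cyp3a44) are members already counted above, and 2 of them had a mean above the floor. Of the male-biased genes, Cyp2d9 and Cyp2u1 are members too, and both are among those lower at 1.0%.

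Markers of other cell types were read beside these results. The summed intensity of the 4 measured neutrophil markers, 3 of them above the floor, ran from 39.2 to 123 at 1.0% and from 46.4 to 312 at 0.5%, against 32.4 to 66.2 in control. That of the 5 Kupffer cell markers ran from 478 to 616 at 1.0% and from 484 to 592 at 0.5%, against 517 to 610 in control, and 0 markers of either list passed at 1.0%. The part of other cells in the P450 values was not tested.

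Within groups, the receptors and the genes best known as their targets gave permutation p-values above 0.05 for both pairs examined. Over the 24 arrays, with group means removed, Nr1i2 and Cyp3a11 had a Pearson r of 0.232 (permutation p = 0.338, adjusted p = 0.338 over 2 pairs) and a Spearman rho of 0.168 (permutation p = 0.462). Without the 2 arrays farthest from the median r was 0.201, within replicates 1 to 3 it was 0.0297 and within replicates 4 to 6 it was 0.363. Without the 4 arrays that stood apart r was -0.0454, and with the group means kept it was -0.173. Without normalization between arrays r was 0.623 (permutation p = 0.00124). There the arrays differ in scale, which enters both genes, so that value does not isolate a link between them. Nr1i3 and Cyp2b10 had r = -0.347 (permutation p = 0.221, adjusted p = 0.338) and rho = -0.243 (permutation p = 0.335), with r = -0.0906 without the 2 farthest arrays and 0.134 without the 4 arrays that stood apart.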

How the data were processed

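Liver RNA of 24 mice was read on 1 Affymetrix array each, with biotin-labelled cRNA per the labels' protocols. The authors deposited 1 table of intensity values on a linear scale for 45101 probe sets; its software, background correction and summary method: not given in the sources used here. Of these, 34945 probe sets had 1 symbol in the platform annotation, 932 had several, 9211 were not listed and 13 were array controls. For a gene with several probe sets the brightest on average was kept, which left 18193 genes. Values were log2(intensity + 1), quantile-normalized between arrays, since array medians differed; the number of arrays limits the precision.

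The 24 arrays were fitted together (limma 3.58.1, R 4.3.3, eBayes), with two-sided tests and Benjamini-Hochberg adjustment over all genes at 0.05, and differences carry the SE from that fit. The 95% intervals use that SE with the residual degrees of freedom. The p-values also use the prior degrees of freedom of eBayes, so the intervals are somewhat wider than those of the moderated test. The fit was tested on simulated data. Correlations used 100000 permutations within groups. Promoters and motifs came from RefSeq, build GRCm38.p6.

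Named genes were the receptors, the 6 brightest members, Cyp2b10, Cyp2c55, Cyp2c29, Cyp2c37 and Cyp3a11, members with an unadjusted p under 0.05 for a dose against control or the slope and not at the floor throughout, and the brightest of each other subfamily; Cyp2b9, Cyp2c38, Cyp2c39, Cyp2c68, Cyp2j5, Cyp3a13 and Cyp3a16, and the pathway genes outside the set, were added after their values were seen. Members and lists were chosen with earlier results of these data known. Same-numbered replicates did not pair: the 36 correlations of their deviations from group means ran from -0.0641 to 0.111 (median 0.00392). Por was not analysed here. Alternatives covered normalization, pseudocount, probe set choice, filters, eBayes options, blocks, 2-group fits, the 4 arrays apart and each array left out.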

Additional observations from a re-analysis of the deposited data

Results flagged for a closer look

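Among 84 groups of 6 arrays (21 named genes in 4 diets), 3 had 1 array far from the other 5 by a gap test for which chance alone gives about 1 group in 20. Nr1i2 in replicate 5 at 0.5% was at 5.98, with the other 5 mice of that group between 5.29 and 5.48. Cyp2b10 in control replicate 3 was at 4.56, with the other 5 control mice between 2.85 and 3.49. Cyp2e1 in control replicate 2 was at 13.08, with the other 5 between 12.98 and 13.00. Several of those 5 shared the same value. At this brightness quantile normalization sets values by rank, so the gap is a step between ranks.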

How the results depend on the processing

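The count of members passing at 1.0% against 0.1%, 1 (Nr1i2), was 0 in 8 of 11 settings. The difference of Nr1i2 and its adjusted p were then 0.57 and 0.607 without normalization, 0.59 and 0.0715 with arrays centred on their medians, 0.56 and 0.201 for the mean of its probe sets, 0.61 and 0.0677 with every probe set tested, 0.61 and 0.0883 with the replicate number as a block, 0.61 and 0.0621 with sets of 3 replicates as a random block, 0.61 and 0.151 with only the 2 groups, and 0.66 and 0.0627 without the 4 arrays apart. It passed with a pseudocount of 16 (0.0109), without genes at the floor (0.0116) and with trend and robust eBayes (0.021). With 1 array left out the count was 0 or 1, and the difference ran from 0.55 to 0.67 (adjusted p 0.0174 to 0.102), with 9 of 24 arrays ending the call. The replicate block changed no other count of members passing. The slope, with 0 members passing, had 1 with a pseudocount of 16 (Nr1i2) or with trend and robust eBayes (Cyp3a44), and 2 without genes at the floor (both), where fewer genes are tested. The test of any difference, with 0, had 1 (Nr1i2) with a pseudocount of 16, without genes at the floor, and without replicate 5 at 0.5%, so 0 to 1 with 1 array left out.

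Without normalization 11 members were lower than control at 0.1% (23 otherwise) and 17 at 0.5% (31 otherwise), while the median difference of all genes was 0.11 and 0.15 (0.01 and -0.02 otherwise). Members at the floor in all 4 groups numbered 3, but 6 with the floor at the median of all genes and 1 with the 75th percentile of the receptor genes. The correlation of Nr1i2 with Cyp3a11 was -0.17 with group means kept and 0.62 without normalization (permutation test, adjusted p = 0.00248), where differences of scale between arrays enter both genes. Of 84 differences of named genes, the 17 with an unadjusted p under 0.05 kept their sign in every one of the 11 settings that gave a value (genes at the floor have none without them) and with each array left out; of the other 67, 40 changed sign somewhere. The count of members above the floor with an SD above that of control was 17 at 1.0% (31 otherwise) and 18 at 0.5% (29 otherwise) without the 4 arrays, a setting added after the data were seen. Where no construction is named, the cause was not tested. Correlations with Por could not be run. Signal limits 9 members with means at or below the floor, and 6 mice per group limit all differences.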
